A study of Mus musculus with 6 samples.

Results

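The 200 brightest piRNA probes of control mouse testis are the subject here. They were chosen from 41069 piRNA probes on a 1-colour microarray. The ranking used the mean level over the 3 control arrays, and the MC-LR arrays took no part in it. The samples were testes of male mouse offspring aged 30 days. The mothers of the MC-LR group drank water with 10 μg/L microcystin-LR, a cyanobacterial toxin that inhibits protein phosphatases, starting on gestation day 12 and ending on postnatal day 21. The mothers of the control group drank water with 0 μg/L over the same span. Each group held 3 offspring, each born to a different mother per the labels, and each animal had 1 array. A strain is not given in the labels, and the array has no probes for protein-coding marker genes, so the tissue label was not checked against markers.

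piRNAs are small RNAs bound by PIWI proteins in germ cells, where they guide the silencing of transposons and of other transcripts. In the mouse testis, a large class appears when germ cells enter the pachytene stage of meiosis. These piRNAs are cut from long transcripts of a limited number of genomic clusters, and MILI and MIWI carry them. The probes are listed here by the array maker's identifier only. Names, sequences and genome positions of the piRNAs were not analysed here, so which clusters the probes stand for is not given.

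Level in this account means the log2 processed signal of a probe minus the median of its array over 10545 probes, those flagged well above background on each of the 6 arrays. A level of 0 is thus that of a typical well-detected probe. Well above background were 20652, 14694 and 18067 piRNA probes in MC-LR replicates 1, 2 and 3. In control replicates 1, 2 and 3 they were 16402, 11523 and 14169. The median subtracted was 123.5, 119.5 and 112.3 intensity units in MC-LR replicates 1, 2 and 3. It was 97.1, 81.6 and 87.9 units in control replicates 1, 2 and 3. Levels are thus relative to a reference that was brighter on the MC-LR arrays. All 200 members were well above background on all 6 arrays, and none was saturated or carried an outlier flag on any array. The dimmest member on any array, at 4657.6 intensity units, lay 282-fold above the dimmest signal with that flag on its array. The brightest signal of any member was 531637 units, and the scanner saturated at 778010 units or more. Of the tested probes, 697 (4.36%) were higher and 243 (1.52%) lower in MC-LR testes (limma, adjusted p under 0.05).

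In controls the levels of the members ran down from 11.96 for the brightest probe to 7.92 for the probe at rank 200, a 16.4-fold range of signal. The top of the list was flat. The probe at rank 10 had a control mean of 11.67 and the probe at rank 20 one of 11.48, so the brightest 20 lay within 1.39-fold of each other. The level was 10.70 at rank 50 and 9.60 at rank 100. Below the list it went on falling, to 6.01 at rank 400 and 3.57 at rank 1000. On this scale the brightest probe had 3973 times, and the probe at rank 200 had 242 times, the signal of the typical well-detected probe.

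The edge of the list was not a gap. ASPI304555P, at rank 200, had levels of 7.44, 8.01 and 7.56 in MC-LR replicates 1, 2 and 3, against 7.84, 8.10 and 7.83 in control replicates 1, 2 and 3. ASPI060951P, the next probe and outside the list, had 7.85, 7.81 and 7.90 in MC-LR replicates 1, 2 and 3, against 7.88, 7.80 and 8.06 in control replicates 1, 2 and 3. The control means of the 2 probes, 7.92 and 7.92 after rounding, differed by far less than the spread between control animals.

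A small part of the probes held most of the signal. The 200 members are 0.489% of the 40898 probes without an outlier flag. They gave 77.7%, 77.9% and 77.7% of the summed processed signal in MC-LR replicates 1, 2 and 3, against 79.2%, 78.7% and 80.0% in control replicates 1, 2 and 3. The means were 77.8% ± 0.0893 in MC-LR and 79.3% ± 0.651 in control testes (SD, n = 3 each). Since the list was made from control arrays, a lower share elsewhere can come from that choice. With each array's own 200 brightest probes the shares were 79.0% ± 0.545 in MC-LR and 79.5% ± 0.567 in control testes, and the groups overlapped. On median spot signals minus median local background, the members' shares were 75.8% ± 1.35 in MC-LR and 75.9% ± 2.59 in control testes.

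The groups were further apart in the share of the brightest 50 of the list. The brightest 50 probes gave 41.5%, 41.1% and 41.0% of the signal in MC-LR replicates 1, 2 and 3, against 44.8%, 44.3% and 44.1% in control replicates 1, 2 and 3. The MC-LR shares all lay below the control shares, and the means were 41.2% ± 0.269 and 44.4% ± 0.348 (SD, n = 3 each). The difference was -3.29 percentage points on slide 1 and -3.14 on slide 2, the slides that carried an array of each group. On arrays of 1 scan day it was -3.24 for day 1 and -3.47 for day 2. Each array's own brightest 50 probes gave 42.2% ± 0.477 in MC-LR and 44.5% ± 0.388 in control testes, again without overlap. For the brightest 10 the direction depended on the list. Those of the control list gave 10.9% ± 0.105 in MC-LR and 11.7% ± 0.212 in control testes. Each array's own brightest 10 gave 12.2% ± 0.701 and 11.8% ± 0.192, and the groups overlapped. No test was run on these shares, because the control arrays chose the probes. On median spot signals the brightest 50 of the list gave 40.4% ± 1.00 in MC-LR and 42.5% ± 1.45 in control testes, and the highest MC-LR share (replicate 2) and the lowest control share (replicate 2) were both 41.1%.

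At the top, the brightest member of the control arrays was also the brightest by mean in MC-LR. ASPI224694P had levels of 11.62, 12.12 and 11.62 in MC-LR replicates 1, 2 and 3, against 12.10, 11.78 and 11.99 in control replicates 1, 2 and 3. The groups overlapped, and the log2 difference was -0.17 ± 0.23 (SE, limma adjusted p = 0.657), with a 95% interval from -0.70 to 0.36. This 1 probe gave 1.37% ± 0.166 of all signal in MC-LR and 1.33% ± 0.100 in control testes (SD, n = 3 each).

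The next probes of the list had lower values in MC-LR. ASPI289292P had 11.39, 11.53 and 11.44 in MC-LR replicates 1, 2 and 3, against 11.96, 11.72 and 11.92 in control replicates 1, 2 and 3. ASPI157131P had 11.43, 11.49 and 11.37 in MC-LR replicates 1, 2 and 3, against 11.82, 11.78 and 11.74 in control replicates 1, 2 and 3. In both probes the MC-LR arrays all lay below the control arrays, with log2 differences of -0.41 and -0.35, and neither passed the test (limma adjusted p = 0.203 and 0.248). ASPI264415P had the largest difference among the 10 brightest, with 11.29, 11.39 and 11.01 in MC-LR replicates 1, 2 and 3, against 11.76, 11.70 and 11.73 in control replicates 1, 2 and 3. Its log2 difference was -0.50 ± 0.20 (SE, limma adjusted p = 0.143).

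In ASPI128225P the groups overlapped, with 11.74, 11.60 and 11.67 in MC-LR replicates 1, 2 and 3, against 11.65, 11.71 and 11.70 in control replicates 1, 2 and 3. Its log2 difference was -0.01 (95% interval -0.45 to 0.42), and it was at rank 3 by MC-LR mean and at rank 9 by control mean. The remaining 5 of the 10 brightest, ASPI107239P, ASPI287393P, ASPI047899P, ASPI161070P and ASPI342542P, had log2 differences between -0.44 and -0.27. The MC-LR arrays of each of these 5 lay below its control arrays. None of the 10 brightest passed the threshold in the fit without covariates, and with slide as a block ASPI342542P did (log2 difference -0.61, limma adjusted p = 0.0498).

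Of the 10 brightest by control mean, 5 were among the 10 brightest by MC-LR mean, and of the 20 brightest 19 were among the 20 brightest. The corresponding counts were 45 of 50 and 88 of 100. ASPI178710P, singled out after its values were seen, was at rank 2 by MC-LR mean and at rank 11 by control mean, at levels of 11.76, 11.66 and 11.77 in MC-LR replicates 1, 2 and 3 and of 11.65, 11.62 and 11.68 in control replicates 1, 2 and 3. Its log2 difference was only 0.08 ± 0.19 (SE). The median member changed its rank by 16 places, and 11 members moved by more than 50.

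Of the 200 members, 185 (92.5%) were also among the 200 brightest by MC-LR mean, and 170 were among the 200 brightest on every one of the 6 arrays. The 15 that left held MC-LR ranks down to 358, and 12 of them had control ranks over 170, close to the edge of the list. The 15 probes that took their places had control ranks down to 343. The brightest of these in MC-LR, ASPI275203P, had levels of 9.47, 9.24 and 9.44 in MC-LR replicates 1, 2 and 3, against 6.68, 8.64 and 8.07 in control replicates 1, 2 and 3, and did not pass the threshold (log2 difference 1.59 ± 0.46, SE, limma adjusted p = 0.0695). Without control replicate 1 its difference was 1.03. ASPI294731P had 9.32, 8.92 and 9.23 in MC-LR replicates 1, 2 and 3, against 7.34, 8.05 and 7.80 in control replicates 1, 2 and 3, and rose by 1.43 ± 0.25 (SE, limma adjusted p = 0.0408). That call was kept without MC-LR replicate 2 and was lost without any other single array (limma adjusted p up to 0.166), while the difference lay between 1.24 and 1.59 without single arrays.

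Single arrays, each ranked on its own, shared much of their top. Any 2 control arrays shared 186 to 192 of their own 200 brightest probes, any 2 MC-LR arrays shared 186 to 191, and a MC-LR and a control array shared 176 to 190. The lowest count was between MC-LR replicate 1 and control replicate 1, and the highest between MC-LR replicate 2 and control replicate 3. Over the 200 members, levels correlated at r = 0.917 to 0.957 between MC-LR arrays, at 0.931 or more between control arrays and at 0.796 to 0.943 between arrays of different groups. These correlations describe the members, which share arrays, and carry no test. For MC-LR replicate 2, r was 0.902 to 0.943 with the controls and 0.917 and 0.934 with the other MC-LR arrays. The median absolute difference of a member's level put that array closer to every control array, at 0.310, 0.222 and 0.184 log2 units for control replicates 1, 2 and 3, than to MC-LR replicates 1 and 3, at 0.376 and 0.320.

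Control animals differed little in these probes. The SD over the 3 control arrays had a median of 0.15 on the log2 scale, about 11.1% of the signal, over the members and of 0.28 over the other 10289 probes that were well above background throughout. In the MC-LR animals, whose values took no part in the choice, the median SD was 0.23 over the members and 0.26 over the other probes. The SD of a member was larger in MC-LR than in control animals for 142 of 200 members, and for 4767 of the 10289 other probes. It exceeded 0.5 in MC-LR animals for 29 of the 200 members and in control animals for 8. Among the 10289 other probes it did so for 1506 in MC-LR animals and for 1814 in control animals. Over the members, MC-LR replicate 2 lay a median of 0.35 from the mean of the other MC-LR arrays. For MC-LR replicates 1 and 3 that distance was 0.18 and 0.15. MC-LR replicate 2 was alone on its slide. Within each group every array was on a different slide, so spread between animals and spread between slides cannot be told apart.

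The steadiest and the most variable members can be read from single arrays. ASPI189991P, with the smallest control SD of 0.016, had levels of 9.15, 9.40 and 8.90 in MC-LR replicates 1, 2 and 3, against 9.84, 9.84 and 9.86 in control replicates 1, 2 and 3. The MC-LR arrays all lay below the controls and were further apart from each other, and the log2 difference was -0.70 ± 0.21 (SE, limma adjusted p = 0.0783). ASPI033979P, with a control SD of 0.025, had 11.05, 11.21 and 10.83 in MC-LR replicates 1, 2 and 3, against 11.34, 11.32 and 11.37 in control replicates 1, 2 and 3. At the other end, ASPI155557P had 6.80, 8.00 and 7.33 in MC-LR replicates 1, 2 and 3, against 6.94, 8.44 and 8.66 in control replicates 1, 2 and 3. There, 1 array in each group was low by more than 1 log2 unit against the group's highest, and both low arrays lay on slide 1.

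Whether the members' levels differed between MC-LR and control testes was tested in a fit over all 15978 tested probes. In a bulk sample, fewer cells of a type and less RNA per cell cannot be told apart. Of the 200 members, 1 was higher and 2 were lower in MC-LR (limma, adjusted p under 0.05), or 1.5% of the members, against 5.88% of all tested probes in either direction. The control values in this contrast also chose the members, so nothing is read from the 2 percentages. No member passed when MC-LR replicate 1, MC-LR replicate 3 or any 1 control array was left out. Of all tested probes, 0 passed in these fits, except 4 higher and 8 lower without control replicate 2. Without MC-LR replicate 2, 1 member was higher and 5 lower, among 1110 higher and 376 lower of all tested probes. The calls also changed with the model. With slide as a block, 13 members were higher and 69 lower, among 3436 (21.5%) higher and 2242 (14.0%) lower of all tested probes. That fit compares the groups on slides 1 and 2 only, replicates 1 and 3 of each group, and leaves 1 residual degree of freedom per probe. The cause of the change in calls was not tested.

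The member that rose was ASPI301025P. It had levels of 9.80, 9.83 and 9.93 in MC-LR replicates 1, 2 and 3, against 8.17, 8.52 and 8.32 in control replicates 1, 2 and 3. The groups were far apart and each was narrow, and the log2 difference of 1.52 ± 0.20 (SE, limma adjusted p = 0.0408) is 2.87-fold. It was 1.63 on slide 1 and 1.61 on slide 2, and the probe was at rank 82 by MC-LR mean and at rank 176 by control mean.

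Of the 2 members that fell, ASPI043211P had levels of 5.24, 6.67 and 5.98 in MC-LR replicates 1, 2 and 3, against 10.52, 7.90 and 9.48 in control replicates 1, 2 and 3. It also had the largest control SD of the list, 1.32, and the lowest MC-LR rank, 358. Its log2 difference was -3.34 ± 0.64 (SE, limma adjusted p = 0.0408), or 10.1-fold lower. The size rested on single controls, with -2.73 without control replicate 1 and -4.04 without control replicate 2 (limma adjusted p = 0.0573 and 0.0644). It was -5.29 on slide 1, -3.50 on slide 2, -2.71 on the arrays of scan day 1 and -4.57 on those of scan day 2.

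ASPI086889P had 7.29, 7.70 and 7.40 in MC-LR replicates 1, 2 and 3, against 8.57, 8.30 and 8.80 in control replicates 1, 2 and 3. The groups did not overlap, and the level was 2.13-fold lower, with a log2 difference of -1.09 ± 0.23 (SE, limma adjusted p = 0.0448). It was -1.27 on slide 1 and -1.40 on slide 2. Next in MC-LR rank to ASPI043211P was ASPI257987P, at 7.08, 7.83 and 6.74 in MC-LR replicates 1, 2 and 3 and at 8.81, 7.45 and 8.27 in control replicates 1, 2 and 3, with overlapping groups (log2 difference -0.96 ± 0.41, SE, limma adjusted p = 0.159). It missed the threshold, and without single arrays its difference lay between -1.33 and -0.65. With slide as a block, where the replicate 2 arrays do not enter the comparison, it was -1.63 (limma adjusted p = 0.00512).

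Most members differed by less than 2-fold, and their differences did not centre on 0. The log2 difference was within 0.5 of 0 for 133 members and at least 1 in size for 5. The median was -0.31, with 142 members below 0 and 58 above, against a median of 0.02 over all 15978 tested probes and of -0.13 over the 10289 other probes well above background throughout. In steps of 0.2, the fullest were -0.6 to -0.4 with 53 members and -0.4 to -0.2 with 46. The counts were lower and nearly level above that, with 18, 17, 15 and 18 for the 4 steps up to 0.6. The median level of the members on an array is a different quantity, and it was 9.56, 9.67 and 9.49 in MC-LR replicates 1, 2 and 3, against 9.72, 9.51 and 9.67 in control replicates 1, 2 and 3. These array medians overlapped between the groups, and their means, 9.57 ± 0.088 in MC-LR and 9.64 ± 0.11 in control testes (SD, n = 3 each), differed by only -0.06.

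The MC-LR arrays lay wholly below the control arrays for 72 members (36%) and wholly above them for 36 (18%), while 92 overlapped. Over all tested probes the percentages were 14.9% below and 21.2% above. The control values in these counts also chose the members, so nothing is read from these percentages. The counts differed along the list, whose order comes from the same control arrays. Of the brightest 20, 13 were wholly below and 0 wholly above, with a median log2 difference of -0.29. At ranks 21 to 50 it was 23 below and 2 above, with a median of -0.41, and at ranks 51 to 100 it was 22 and 6, with -0.38. Among the last 100 members, 14 were wholly below and 28 wholly above, and the median was -0.13.

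Choosing probes for high control levels can by itself lower MC-LR minus control. Lists of 200 were therefore chosen on 2 control arrays and set against the third, which then had no part in the choice. These lists shared 195 to 197 probes with the members and were set against the same MC-LR arrays, so they are not separate checks. The left-out control differed from the choosing pair by a median of 0.03, -0.12 and 0.07 log2 units for control replicates 1, 2 and 3. The MC-LR mean minus the left-out control had medians of -0.33, -0.20 and -0.34 in the same order. A list chosen on the 3 MC-LR arrays, where the choice acts the other way, had a median of -0.26, with 73 of its 200 probes above 0. That list shared 185 probes with the members and was scored on the same arrays, so it is not a separate check either.

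The difference was not alike in the 3 MC-LR animals. Against the left-out control arrays, the medians were -0.49, -0.27 and -0.42 for MC-LR replicate 1, and -0.45, -0.32 and -0.43 for MC-LR replicate 3. For MC-LR replicate 2 they were -0.06, 0.05 and -0.06. Within slide 1 (replicate 1 of each group) the members' median was -0.50, and within slide 2 (replicate 3 of each group) it was -0.43, and 190 members had the same sign on both. Between the replicate 2 arrays, each alone on its slide and not of the same scan day, it was 0.04. Scan day 1 (1 MC-LR and 2 control arrays) gave -0.40, and scan day 2 (2 MC-LR arrays and 1 control array) gave -0.30. Without MC-LR replicate 2 it was -0.46. The control arrays were at slide position 3 throughout and the MC-LR arrays at positions 4, 1 and 4, so group and position cannot be told apart.

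The median also moved with the scaling. It was -0.19 with the 75th percentile of the probes detected throughout and -0.45 with that of all probes, while the median of all tested probes moved along, to 0.14 and -0.12. With quantile normalization, which gives the arrays 1 common distribution, the median was -0.09 over the members and -0.07 over all tested probes. In the authors' deposited table it was -0.09, against -0.04. Without scaling it was 0.10, against 0.44. On processed signals, the members' median lay 0.33 log2 units below that of all tested probes under each single factor per array. Such a factor shifts both medians alike, so these equal values are not separate checks. The gap was 0.02 after quantile normalization and 0.05 in the authors' table. Quantile normalization gives each array the same values at the same ranks, which by itself limits a shift shared by the brightest probes. In the authors' table the members' median was 16.34 on each MC-LR array and 16.32 to 16.34 on the control arrays. The gap was 0.10 on median spot signals with another background correction (normexp). With the main scaling, it was 0.18 when only probes detected throughout were compared. The gap thus moved with the signal and the comparison set as well as with the scaling.

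The members were spread over the identifiers and over the array. They made up 0.458%, 0.619%, 0.407% and 0.479% of the probes in the 4 consecutive identifier blocks of 100000, and 2 of 583 probes in the last, shorter block. In 4 equal bands of the array's rows lay 52, 47, 52 and 49 members. The median log2 difference in these bands was -0.27, -0.25, -0.44 and -0.39.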

How the data were processed

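RNA from 6 testes was hybridised to 1-colour arrays (Cy3) of 42486 spots. Per the file headers, the intensity values come from Agilent Feature Extraction 11.0.1.1, background-subtracted and detrended within arrays, with no normalization between arrays. Multiplicative detrending was not applied on MC-LR replicate 1 or control replicate 2. The deposited log2 table (17220 piRNA probes) has 1 shared maximum per array. No source used here states its normalization.

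Levels were scaled by the median of 10545 probes, those well above background throughout, the scale that chose the members, rather than the 75th percentile. The 171 probes with an outlier flag on any array were left out. Probes well above background on at least 3 arrays were tested (15978) with limma 3.58.1 in R 4.3.3 over all 6 arrays without covariates. Tests were two-sided and Benjamini-Hochberg adjusted, with a threshold of 0.05. "Rose" and "fell" mean past that threshold. The code was checked on simulated data with large planted changes and no slide effect, so that check does not bear on smaller changes or on slides. The number of arrays limits the precision.

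Probes named were the 10 brightest, the largest called rises and falls (up to 2 each), the 2 largest and 2 smallest control SDs, the 2 lowest MC-LR ranks, the 2 brightest outsiders in MC-LR, and the probes on both sides of the list's edge. Members, lists and tests were chosen with earlier results of these data known. Slide means 1 scan image, and scan day its date, per the file headers. Other scalings, filters, background corrections, blocks and variance models, and leaving out each array, were tried. The scanner files used here hold no mean spot signal, so normexp (offset 50) used median signals.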

Additional observations from a re-analysis of the deposited data

How the results depend on the processing

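Counts of members higher and lower in MC-LR were 1 and 2, and over all tested probes 697 and 243 (limma). They were 3 and 3 (1283 and 243) with the 75th percentile of probes detected throughout, 1 and 2 (317 and 214) with that of all probes, 1 and 2 (456 and 269) with quantile normalization, 32 and 2 (3729 and 84) unscaled, 1 and 2 (446 and 214) in the authors' table, 2 and 0 (86 and 53) with normexp, 3 and 3 (593 and 410) over probes detected on all 6 arrays, 2 and 3 (480 and 359) with scan day as a block, and 4 and 7 (953 and 369) with a variance trend. With normexp, 48 members were higher and 26 lower at an unadjusted limma p under 0.05. Over all tested probes, 4125 passed that unadjusted threshold in either direction. Without a filter limma called 0 and 0 (0 and 0), with 7 and 13 members and 5761 probes at an unadjusted p under 0.05. With slide as a block, which rests on slides 1 and 2 and leaves 1 residual degree of freedom per probe, the counts were 13 and 69 (3436 and 2242). Leaving out single arrays gave 0 to 1 and 0 to 5 (0 to 1110 and 0 to 376), with 2861 to 5241 probes at an unadjusted p under 0.05, and such fits also have less power. With the replicate number as a block, 1 and 1 members (1272 and 236) passed, ASPI043211P missing at an adjusted p of 0.0524. Deviations of same-numbered arrays correlated at 0.281, 0.0043 and 0.348. Replicates 1 and 3 of the groups shared a slide and the replicate 2 arrays did not, so the numbers were not taken to pair all the samples.

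The median difference of the members (-0.31) was -0.19, -0.45, -0.088, 0.10 and -0.091 in the first 5 of these alternatives, -0.18 with normexp, -0.48 with slide as a block, -0.50 and -0.43 within slides 1 and 2, 0.044 between the replicate 2 arrays, and -0.46 to -0.25 without single arrays. Of the named probes that reversed, none was called by limma. Unscaled, ASPI224694P had 0.25, ASPI289292P 0.0041, ASPI107239P 0.12, ASPI157131P 0.063, ASPI287393P 0.14, ASPI047899P 0.085, ASPI161070P 0.082, ASPI033979P 0.11, ASPI304555P 0.17, ASPI060951P 0.35 and ASPI128225P 0.41. ASPI128225P, at -0.01, had 0.11 with the 75th percentile of probes detected throughout, 0.14 with quantile normalization, 0.14 in the authors' table, 0.18 with normexp, and 0.035 with slide as a block. Without single arrays it lay between -0.047 and 0.023, above 0 without MC-LR replicate 2 and, at 0.00027, without control replicate 2. ASPI060951P had 0.062, 0.028, 0.043 and 0.20 in the first 4 of these, and -0.12 to 0.011 without single arrays, the highest without control replicate 3. ASPI033979P had 0.029 with quantile normalization and 0.025 in the authors' table. ASPI301025P, ASPI043211P, ASPI086889P and the outsider ASPI294731P kept their direction in 19 alternatives each and passed in 13, 11, 10 and 13, with limma adjusted p-values of 0.0048 to 0.180. The cause of these moves was not tested.

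The members' share of signal (77.8% in MC-LR, 79.3% in control testes) was 75.8% and 75.9% on median signals, 78.9% and 80.2% of the probes detected throughout, 77.6% in MC-LR with flagged probes kept, 60.1% and 63.8% for the brightest 100, 86.9% and 87.9% for the brightest 400, and 79.0% in MC-LR with each array's own list. Without single arrays it was 77.7% to 77.8% and 79.0% to 79.6%. No member's signal was near background, yet the shares moved more with the signal and background used than without single arrays. The list itself shared 200 of its 200 probes with one ranked in the authors' table, 198 with one on median signals and 195 to 197 with those without single control arrays; a single factor per array cannot alter the ranking.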
